A study of Mus musculus with 24 samples.

Results

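The genes described here encode 42 mouse proteins that choose or assemble splice sites: the SR proteins (Srsf genes), the heterogeneous nuclear ribonucleoproteins (Hnrnp genes), the SF3a and SF3b subunits of the U2 snRNP (Sf3 genes) and the U2 auxiliary factor (U2af genes). They were taken by gene name from a count table of 56748 genes, and comprise 11 Srsf, 20 Hnrnp, 9 Sf3 and 2 U2af genes, with no symbol listed for more than 1 gene. Of these, 41 had enough counts to be tested, and Srsf2 had a count of 0 in all 24 libraries. RNA sequencing had been performed on hematopoietic stem cells (HSC) and on 3 multipotent progenitor gates named MPP1, MPP2 and MPP4, sorted from mouse bone marrow (the tissue field of the labels reads blood). Each population was represented by 3 wild-type (WT) and 3 knockout (KO) libraries, which gives 8 groups, 12 WT libraries and 12 KO libraries. All animals, WT included, had been given tamoxifen, and the labels give no age, strain, Cre driver or name for the deleted gene. The series title concerns P-bodies, cytoplasmic granules of repressed RNA.

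SR proteins bind exonic enhancers and recruit the splicing machinery, and many hnRNPs bind exons or introns and oppose or redirect its choice. U2AF recognizes the end of the intron, after which the SF3a and SF3b proteins hold the U2 snRNP on the branch site. SF3B1, SRSF2 and U2AF1 are among the genes most often mutated in human myelodysplastic syndrome, which is why their mouse counterparts are given in full below whatever they did.

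Ddx6, which encodes a core RNA helicase of P-bodies, was not lower in KO libraries, with 62.1 ± 6.17 CPM in WT HSC and 76.0 ± 15.2 in KO HSC (mean ± SD, n = 3; CPM, counts scaled to the same library total), and in MPP1 it was called higher (log2 fold change 0.61 ± 0.18, edgeR adjusted p = 0.0211), as it was on average over the 4 populations (0.32 ± 0.09, edgeR adjusted p = 0.00355). The labels do not say that Ddx6 was the gene deleted, and counts over the whole gene cannot show a deletion of part of it, so the KO label was not checked. Total counts ran from 2540511 to 3807003 per library. Markers did not follow all population labels. Stem cell markers summed to 6684 ± 52.0 CPM in WT HSC and 6548 ± 33.1 in WT MPP1, but lymphoid markers (2742 ± 142 CPM) and granulocyte and monocyte markers (1953 ± 93.5 CPM) were highest in the WT libraries labelled MPP2, and erythroid markers (858 ± 47.7 CPM) in those labelled MPP4. Erythroid markers were also far higher in WT MPP1 (702 ± 13.5 CPM) than in WT HSC (176 ± 4.63 CPM). The words MPP1, MPP2 and MPP4 are therefore used below as labels only. Libraries also differed in background, estimated as the share of counts that would arise if every gene were covered along its span as thinly as 1737 olfactory and vomeronasal receptor genes were. This share was 22.9% ± 1.71 in WT HSC against 5.73% ± 0.234 in KO HSC, 24.5% ± 0.872 against 14.1% ± 0.328 in MPP1, 11.8% ± 0.190 against 9.57% ± 0.670 in MPP2, and 31.2% ± 0.0932 against 18.7% ± 0.340 in MPP4. It was lower in KO than in WT in all 4 populations, so counts of called members below are given for the deposited counts and again with the background removed, in proportion to gene span or, as an alternative, to exonic length. Subtraction means that by span where the other is not named.

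Among the splicing factors, levels per kb of exon over all libraries were highest for Hnrnpl (45.9 CPM per kb), Sf3a1 (45.1) and Hnrnpul1 (44.2). Hnrnpl encodes an hnRNP that binds CA-rich RNA and regulates exon inclusion, Sf3a1 the largest SF3a subunit, and Hnrnpul1 an hnRNP U-like protein. The next members were Hnrnpc at 27.5 and Hnrnpk at 25.8 CPM per kb. Within the families, Srsf4 was the highest SR gene (18.7 CPM per kb) and Srsf12 the lowest of those detected (2.05), U2af2 exceeded U2af1 (12.0 against 9.69 CPM per kb), Sf3b5 was the lowest SF3 gene (1.45) and Hnrnpab the lowest Hnrnp gene (0.863). The level of Srsf4 is uncertain, since 43.0% of its exonic bases overlap Gm12992 on the opposite strand, and the counting is not known to have used strand. In all, 18 of the 42 members share exonic bases with another gene and 10 share more than 5% of them. Of the exonic bases of Srsf2, 25.3% also lie in exons of Mfsd11 and Mettl23 on the opposite strand. Near-identical copies among annotated pseudogenes were found for 12 members, 5 of them among those 18 (at least 95% identity over 500 bases or more). There were 24 for Hnrnpa3, 9 for Hnrnpa1 and 5 for Hnrnpf, and the counts of the 12 members are uncertain for that reason.

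The promoters of the 3 most abundant members are shown. Sf3a1 was also called higher in KO in 4 populations and Hnrnpl and Hnrnpul1 in 3, as were Hnrnpk and Hnrnpu, as described next. Each window runs 5′ to 3′ on the gene's strand from 250 bases before to 50 after the RefSeq start (GRCm38.p6): chr11:4160104-4160403 on the plus strand for Sf3a1, chr7:28810640-28810939 on the plus strand for Hnrnpl and chr7:25754710-25755009 on the minus strand for Hnrnpul1. Capitals mark matches, on either strand, to CCAAT (the CCAAT box), GGGCGG (a GC box) and CCGGAAG (an ETS-type motif), and no match overlaps another.
Sf3a1: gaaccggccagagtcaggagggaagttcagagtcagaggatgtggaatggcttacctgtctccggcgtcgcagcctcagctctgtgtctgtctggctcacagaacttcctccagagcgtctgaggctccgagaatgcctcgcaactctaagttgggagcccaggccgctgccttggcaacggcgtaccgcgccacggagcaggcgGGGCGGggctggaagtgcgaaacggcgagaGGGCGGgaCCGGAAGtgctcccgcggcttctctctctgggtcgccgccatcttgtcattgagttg
Hnrnpl: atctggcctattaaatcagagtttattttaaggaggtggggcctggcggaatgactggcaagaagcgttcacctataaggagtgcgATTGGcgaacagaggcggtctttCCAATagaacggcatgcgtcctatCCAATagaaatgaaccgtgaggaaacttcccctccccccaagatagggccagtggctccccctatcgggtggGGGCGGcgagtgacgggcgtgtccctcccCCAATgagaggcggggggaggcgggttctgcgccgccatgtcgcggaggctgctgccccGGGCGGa
Hnrnpul1: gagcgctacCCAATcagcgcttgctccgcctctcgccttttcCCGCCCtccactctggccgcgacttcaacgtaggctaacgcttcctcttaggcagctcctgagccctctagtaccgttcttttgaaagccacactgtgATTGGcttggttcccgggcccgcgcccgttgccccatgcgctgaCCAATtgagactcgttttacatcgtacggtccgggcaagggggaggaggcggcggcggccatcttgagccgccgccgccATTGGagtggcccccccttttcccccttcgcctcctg
Hnrnpl and Hnrnpul1 each hold 4 CCAAT matches and Sf3a1 none, whereas Sf3a1 holds the CCGGAAG match. Of 37 members with a RefSeq promoter, 5 (Hnrnpa1, Hnrnpc, Hnrnpl, Hnrnpr and Hnrnpul1, all hnRNP genes) hold 4 or more CCAAT matches, against 1.14% of 27025 gene promoters of the same length. This cutoff equals the number in the displayed promoters of Hnrnpl and Hnrnpul1, which pass it by construction, so no enrichment can be read from it. At least 1 CCAAT is held by 51.4% of member promoters and 37.9% of all, GGGCGG by 75.7% and 35.9%, CCGGAAG by 32.4% and 9.12%, and CACGTG, the E-box, by 10.8% and 7.24%. The promoters of all genes were not matched to the members for expression, so no enrichment particular to splicing factors can be read from these shares. The matches are of letters only, and binding was not measured.

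In HSC, most of the abundant splicing factors were higher in KO than in WT libraries. P-values came from edgeR's quasi-likelihood fit, adjusted over all 21964 genes tested by the Benjamini-Hochberg method and called below 0.05. Of 41 members, 25 (61.0%) were called higher, against 18.3% of all genes. None, 0, were called lower, against 24.8% of all genes (0 also at an unadjusted p below 0.05). DESeq2 and limma-voom also called 0 members lower, against 28.8% and 26.8% of all genes. The median log2 fold change was 0.70 over the members and -0.31 over all genes. Abundant genes as a class were shifted upward: of genes of at least 20 CPM, 43.5% were called higher with a median of 0.44, while 24 of the 29 members at that level were called higher with a median of 0.85. In 28 members the 3 KO HSC libraries all lay above the 3 WT ones, which held for 23.1% of all genes, and in none did they all lie below, which held for 30.8%. Cell cycle markers rose beside the splicing factors, with 8 of 10 called higher and summed levels of 760 to 845 CPM in WT HSC and 2044 to 2137 CPM in KO HSC, none of them at 0. Stem cell markers had 7 of 10 higher and 2 lower (6653 to 6744 CPM in WT and 12414 to 12911 CPM in KO), erythroid markers 2 higher and 6 lower of 10 (173 to 181 and 125 to 145 CPM), and lymphoid markers 1 higher and 5 lower of the 7 tested (84.1 to 95.9 and 53.0 to 59.6 CPM, with 2 of 10 genes at 0 in all libraries). Their part in the result was not tested. The libraries are bulk samples, in which fewer cells of a type and less RNA per cell cannot be told apart.

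Hnrnpul1 stood at 253, 276 and 224 CPM in the WT HSC libraries and at 549, 451 and 535 CPM in the KO HSC libraries. Every KO value was far above every WT value, and the fitted log2 fold change was 1.03 ± 0.10 (SE; edgeR adjusted p = 1.04e-10). Sf3a1 was at 196, 185 and 200 CPM in WT and at 406, 336 and 362 CPM in KO libraries, with no overlap (log2 fold change 0.93 ± 0.10, edgeR adjusted p = 9.57e-10). Hnrnpl was at 174, 201 and 174 CPM in WT and 427, 389 and 323 CPM in KO libraries. The groups again stood apart, with a log2 fold change of 1.05 ± 0.12 (edgeR adjusted p = 2.29e-09). Hnrnpu, which encodes the scaffold attachment factor that binds chromatin and nascent RNA, had 49.0, 59.4 and 58.9 CPM in WT and 129, 122 and 107 CPM in KO libraries. Its log2 fold change was 1.09 ± 0.17 (edgeR adjusted p = 1.74e-06). Sf3b2, an SF3b subunit that contacts the pre-mRNA near the branch site, had 51.8, 69.5 and 62.3 CPM in WT and 120, 140 and 151 CPM in KO libraries. It had the largest log2 fold change of these 5 genes, 1.16 ± 0.19 (edgeR adjusted p = 4.09e-06), and its lowest KO library was well above its highest WT library.

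**Figure D1:**
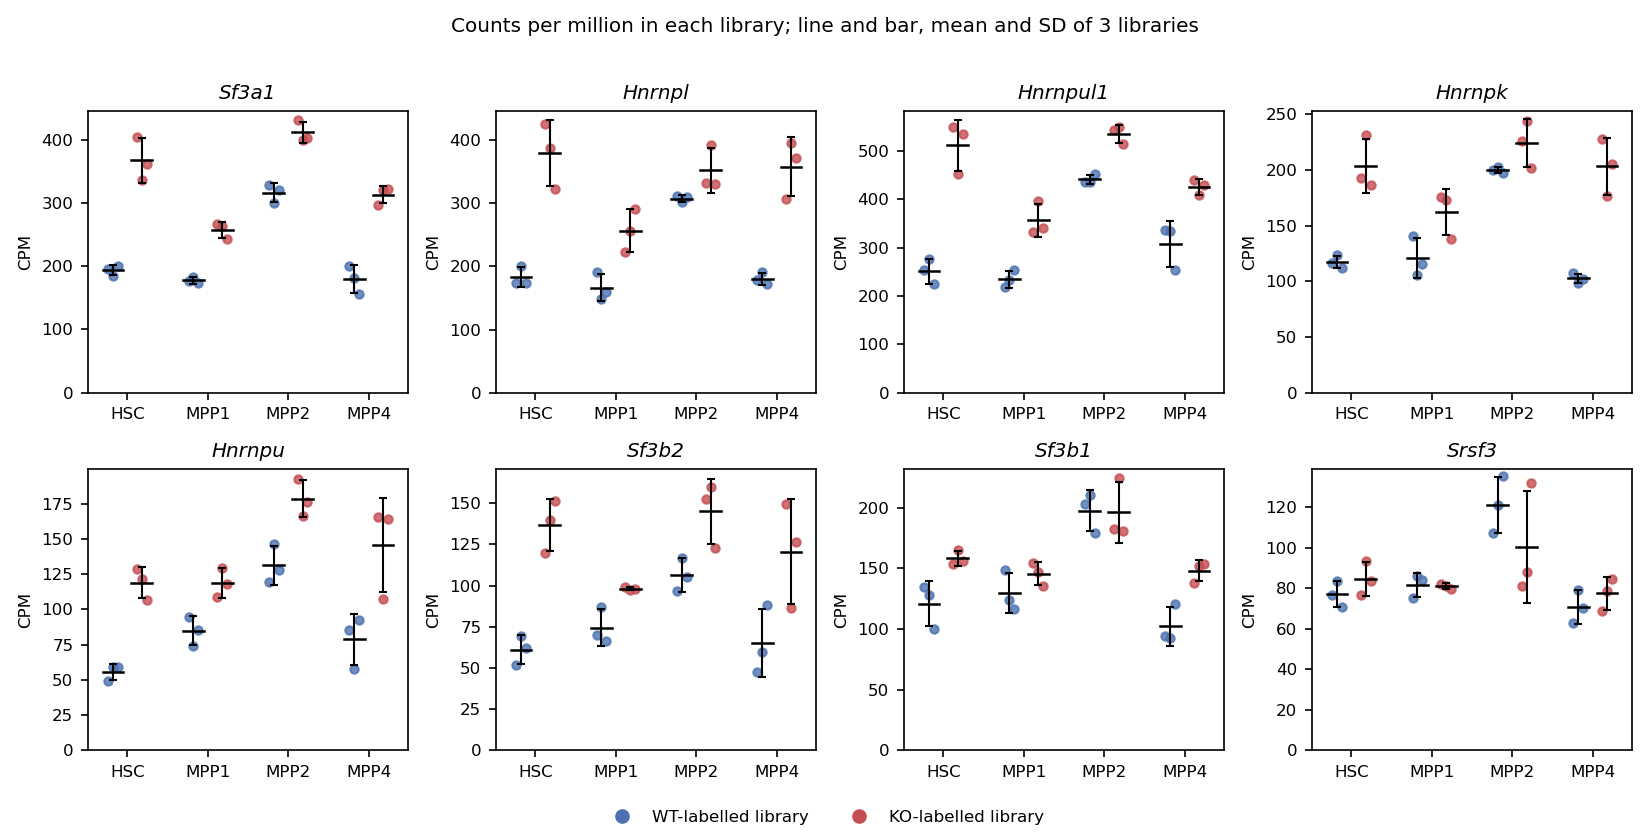
Scaled counts (CPM, linear axis from 0) of 8 members in each of the 24 libraries, by population label, with WT libraries in blue and KO libraries in red; lines and bars are the mean and SD of 3 libraries. In HSC the KO libraries of Sf3a1, Hnrnpl, Hnrnpul1, Hnrnpk, Hnrnpu, Sf3b2 and Sf3b1 all lie above the WT libraries, whereas those of Srsf3 overlap them.

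When each of the 6 HSC libraries was left out in turn, 18 to 20 members were called higher. So were 3398 to 3533 of the 23475 to 23708 genes tested. Of the members, 12 kept their call every time: Hnrnpa2b1, Hnrnpc, Hnrnpk, Hnrnpl, Hnrnpu, Hnrnpul1, Sf3a1, Sf3b2, Sf3b3, Srsf1, Srsf6 and U2af1. Srsf10 lost its call each time. By family, the HSC calls took in 6 of 10 tested SR genes, 11 of 20 Hnrnp genes, 7 of 9 SF3 genes and 1 of 2 U2af genes, all higher. The SR genes called were Srsf1, Srsf4, Srsf6, Srsf7, Srsf10 and Srsf11. Srsf1, the founding SR protein, went from 27.7, 24.9 and 29.1 CPM in WT to 69.3, 54.0 and 44.2 CPM in KO libraries, without overlap (log2 fold change 1.03 ± 0.25, edgeR adjusted p = 0.000828). Srsf3, the smallest SR protein, was an exception among the abundant SR genes: it had 76.5, 83.8 and 70.9 CPM in WT and 76.7, 93.2 and 83.7 CPM in KO libraries. These values overlapped, and its log2 fold change was 0.13 ± 0.17 (edgeR adjusted p = 0.548). Srsf3 was singled out after its values were seen. Hnrnpm, which encodes another abundant hnRNP, also overlapped between the groups (0.09 ± 0.20 on the log2 scale) and was singled out in the same way.

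The size of the HSC difference depended on the scaling and on the background. Before any scaling, all members together took 0.205% ± 0.00498 of the counts in WT HSC and 0.284% ± 0.00431 in KO HSC, while on library totals scaled by edgeR's TMM method they summed to 1900 ± 42.1 and 3315 ± 66.2 CPM. Subtraction by exonic length left 19 members called higher, against 15.4% of all genes, with a median of 0.70. By span, 5 members (12.2%) remained called higher, against 4.38% of all genes, with a median log2 fold change of 0.33 against -0.18 over all genes. They were the 5 genes just described, Hnrnpul1, Sf3a1, Hnrnpl, Hnrnpu and Sf3b2, at log2 fold changes of 0.50, 0.39, 0.51, 0.60 and 0.68 (edgeR adjusted p = 0.00424, 0.00896, 0.00783, 0.0332 and 0.0408). Background was estimated at 1.22% of the Hnrnpl counts in WT HSC and 0.187% in KO HSC, and at 1.88% and 0.311% of the Sf3a1 counts, so few counts were removed from these genes themselves. When only genes of at least 20 CPM were scaled and tested, an alternative chosen after seeing the data, 9 of 29 members were called higher, against 16.6% of those genes, with a median of 0.44 against 0.03.

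**Figure D2:**
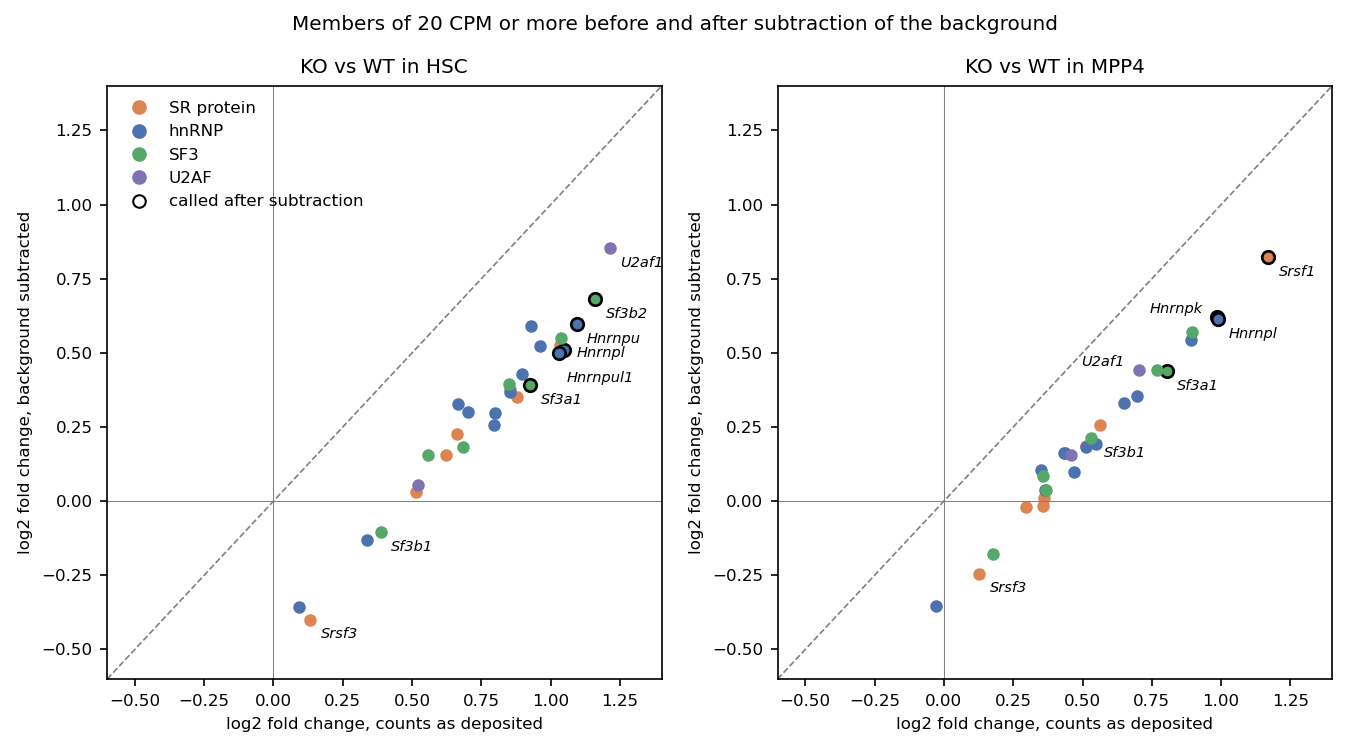
Log2 fold change of KO against WT for members of at least 20 CPM, from counts as deposited (horizontal axis) and after the estimated background was subtracted by span (vertical axis), in HSC (left) and in MPP4-labelled libraries (right), with families in color and a black rim on members called after subtraction. All points lie below the dashed line of equality, and Sf3b1 in HSC passes from 0.39 to -0.10.

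In the MPP4-labelled libraries, 10 of 41 members (24.4%) were called higher in KO, against 11.4% of all genes, and 0 lower, against 6.47%. The median log2 fold change was 0.44 over the members and -0.08 over all genes, and of genes of at least 20 CPM, 10 of 29 members (34.5%) and 27.4% of all were called higher. The genes called were Hnrnpa2b1, Hnrnpc, Hnrnpk, Hnrnpl, Hnrnpu, Hnrnpul1, Sf3a1, Sf3b1, Sf3b2 and Srsf1. Of these, Hnrnpa2b1 and Hnrnpc lost their call without WT replicate 2 or KO replicate 3, and Hnrnpa2b1 also without WT replicate 3 or KO replicate 1. KO and WT libraries did not overlap in 15 members, all higher, against 16.3% of all genes higher and 15.4% lower. Of genes of at least 20 CPM, 34.5% were wholly higher and 13.2% wholly lower. Cell cycle markers were again higher, 6 of 10 by the same test, at 1627 to 1812 CPM summed in WT and 2600 to 2898 CPM in KO. So were granulocyte and monocyte markers, 7 of 9, at 159 to 186 CPM in WT and 404 to 452 CPM in KO. Mast cell markers had 3 higher and 1 lower of 7 (137 to 179 and 277 to 346 CPM), and erythroid markers 6 of 10 lower (804 to 894 and 363 to 424 CPM). The part of these cells in the result was not tested.

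Hnrnpl was at 178, 191 and 172 CPM in the WT MPP4-labelled libraries and at 306, 397 and 372 CPM in the KO libraries, with wide separation (log2 fold change 0.99 ± 0.12, edgeR adjusted p = 3.89e-08). Hnrnpk, a poly(C)-binding hnRNP with roles in splicing, transcription and translation, was at 107, 98.5 and 102 CPM in WT and 228, 177 and 205 CPM in KO (log2 fold change 0.99 ± 0.13, edgeR adjusted p = 3.36e-07). The WT values lay close together and every KO value was well above them. Sf3a1 was at 201, 181 and 156 against 298, 321 and 322 CPM (log2 fold change 0.80 ± 0.10, edgeR adjusted p = 1.05e-07). Hnrnpu was at 85.8, 58.0 and 92.6 against 166, 108 and 164 CPM, with the lowest KO library just above the highest WT library (log2 fold change 0.89 ± 0.17, edgeR adjusted p = 0.000112). Srsf1 was at 28.1, 38.9 and 36.6 against 91.7, 63.8 and 77.6 CPM, without overlap, and its log2 fold change of 1.17 ± 0.24 was the largest of the 5 (edgeR adjusted p = 0.000422). All 10 genes were also called after subtraction by exonic length, against 10.0% of all genes. By span 4 of the members were called higher, against 4.43% of all genes: Hnrnpl at 0.61, Sf3a1 at 0.44, Hnrnpk at 0.62 and Srsf1 at 0.82 (edgeR adjusted p = 0.00185, 0.00419, 0.00222 and 0.0406). Hnrnpu just missed, at 0.54 with an edgeR adjusted p of 0.0581.

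In MPP1, 6 members were called higher in KO (14.6%, against 8.71% of all genes) and 0 lower (4.9% of all genes). All 6 were among the 29 members of at least 20 CPM, so that 20.7% of these were called, close to the 21.5% of all genes at that level. They were Hnrnpul1, Sf3a1, Hnrnpl, Hnrnpk, Srsf4 and Hnrnpu, with log2 fold changes from 0.43 to 0.64. Sf3a1 was at 176, 184 and 173 CPM in WT and 267, 264 and 243 CPM in KO, Hnrnpul1 at 218, 232 and 253 against 332, 396 and 340 CPM, and Hnrnpl at 191, 149 and 160 against 223, 256 and 291 CPM. KO libraries exceeded WT libraries without overlap in these 3 genes (edgeR adjusted p = 0.000147, 3.17e-05 and 0.000171). Hnrnpk, at 141, 106 and 115 against 175, 173 and 138 CPM, overlapped. Srsf4, at 47.0, 35.1 and 48.2 against 56.8, 84.7 and 61.4 CPM, and Hnrnpu, at 94.7, 74.1 and 85.4 against 109, 129 and 118 CPM, did not overlap but lay close to the threshold (edgeR adjusted p = 0.0397 and 0.0430). Hnrnpk, Hnrnpu and Srsf4 lost their call when WT replicate 2, WT replicate 3 or KO replicate 2 was left out, which left 3 calls. Subtraction by exonic length left 3 calls, against 7.38% of all genes, with a median of 0.14. After subtraction by span 0 members were called in MPP1, against 3.18% of all genes, and the members' median went from 0.17 to -0.09. Of the 41 members, 9 had a KO group wholly above the WT group and 1, Sf3b5, wholly below it, against 17.3% and 17.8% of all genes. For genes of at least 20 CPM the shares were 36.6% and 16.0%. In MPP1 cell cycle markers were not higher in KO, with 3 of 10 called lower (1176 to 1259 CPM in WT and 971 to 1049 CPM in KO). Lineage markers differed more: erythroid markers had 8 of 10 called lower (702 ± 13.5 and 82.7 ± 16.8 CPM) and granulocyte and monocyte markers 4 of 9 (183 to 229 and 43.8 to 65.7 CPM). Lymphoid markers had 4 of 7 called higher (466 to 518 and 944 to 996 CPM) and mast cell markers 1 of 7 (48.8 to 66.4 and 190 to 212 CPM). Their part in the result was not tested.

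In the MPP2-labelled libraries a single member, Sf3a1, was called higher in KO (2.44%, against 3.73% of all genes, and 3.45% of members against 8.34% of all genes at 20 CPM or more) and 0 lower (4.17% of all genes). It was at 330, 300 and 320 CPM in WT and 432, 401 and 404 CPM in KO, without overlap, with a log2 fold change of 0.38 ± 0.10 (edgeR adjusted p = 0.0113). The call was lost without WT replicate 2 or without KO replicate 1 of that population (highest adjusted p 0.0841), and after subtraction by span (0.24, edgeR adjusted p = 0.185), when 1.62% of all genes were called higher. After subtraction by exonic length 1 member was called, against 3.21% of all genes. In 10 members the KO libraries all lay above the WT ones and in 2, Srsf12 and Hnrnpul2, all below, against 11.4% and 13.8% of all genes. For genes of at least 20 CPM the shares were 21.3% and 15.4%. The members summed to 3181 ± 35.7 CPM in WT and 3634 ± 23.8 CPM in KO. Of 10 cell cycle markers 0 were called by edgeR (2378 to 2472 CPM in WT and 2312 to 2335 CPM in KO). The summed lymphoid markers went from 2578 to 2833 CPM in WT to 9238 to 9782 CPM in KO, with 1 of 7 called higher and 1 lower. Mast cell markers had 5 of 7 called higher (49.7 to 64.0 and 478 to 524 CPM) and erythroid markers 3 of 10 lower (345 to 374 and 214 to 247 CPM). Their part in the result was not tested.

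**Figure D3:**
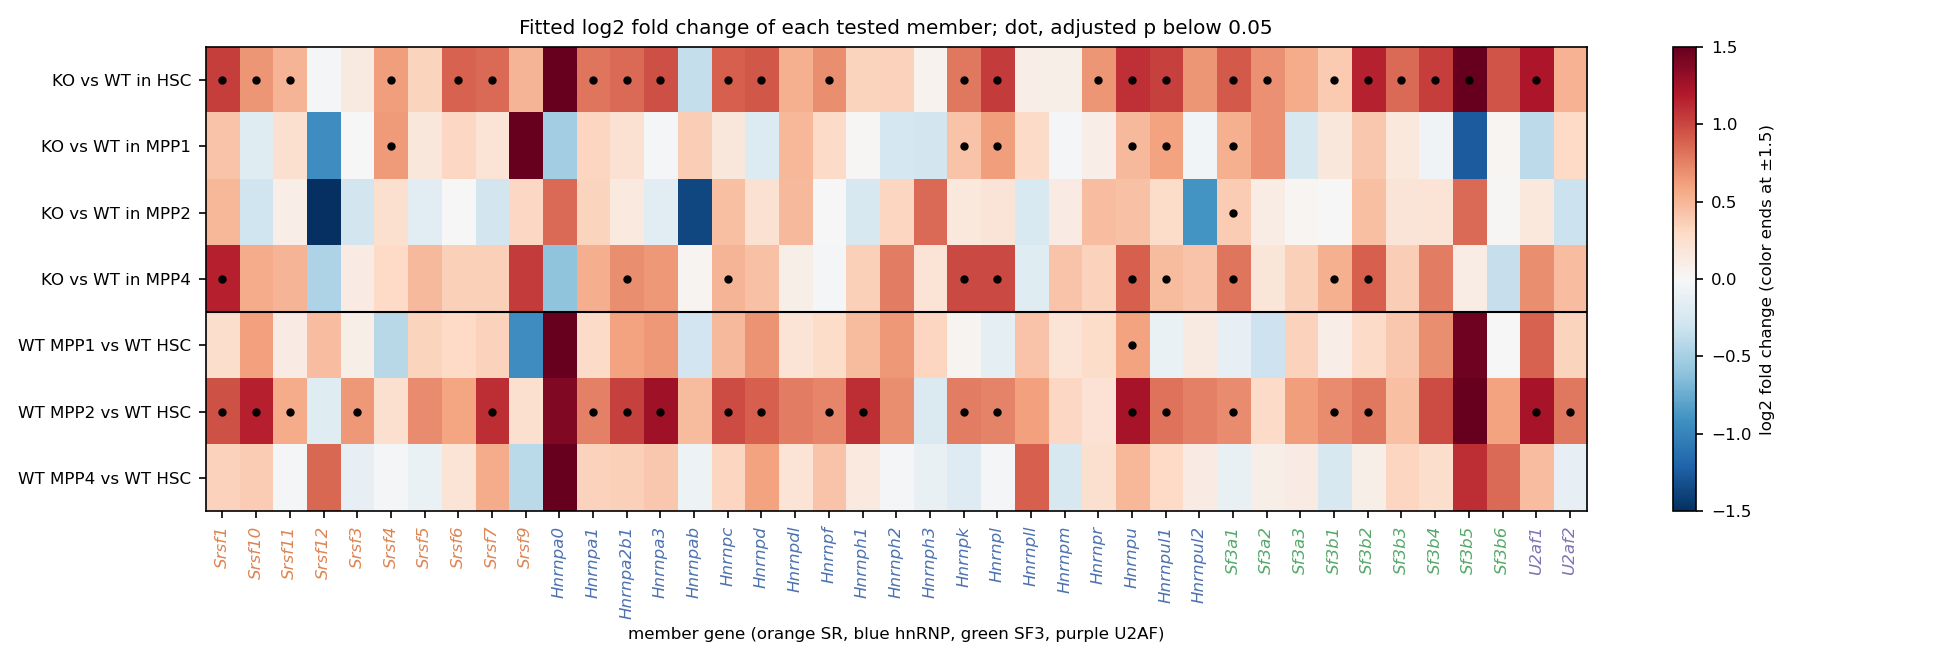
Fitted log2 fold change of each of the 41 tested members (columns, by family) in the 4 comparisons of KO with WT and the 3 comparisons of WT progenitors with WT HSC (rows), on a color scale that ends at ±1.5, with a dot where the edgeR adjusted p was below 0.05. Dots fill the HSC row (25 members) and the row of WT MPP2 against WT HSC (21), and only Sf3a1 has a dot in all 4 rows of KO against WT.

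Across populations, Sf3a1 was called in 4, Hnrnpk, Hnrnpl, Hnrnpu and Hnrnpul1 in 3, and 6 members in 2. A further 14 were called in 1, and 17, Srsf2 among them, in 0. Averaged over the 4 populations, 22 members were called higher in KO (53.7%, against 22.9% of all genes, and 72.4% of members against 51.6% of all genes at 20 CPM or more), with a median log2 fold change of 0.38 against -0.22 over all genes, and 0 were called lower, against 30.3% of all genes. The averaged log2 fold changes were 0.66 ± 0.05 for Sf3a1, 0.71 ± 0.06 for Hnrnpl, 0.60 ± 0.05 for Hnrnpul1, 0.73 ± 0.08 for Hnrnpu, 0.73 ± 0.09 for Sf3b2 and 0.78 ± 0.12 for Srsf1. After subtraction by exonic length 18 members were called higher, against 21.3% of all genes, and 0 lower. By span 8 members stayed higher (Hnrnpc, Hnrnpk, Hnrnpl, Hnrnpu, Hnrnpul1, Sf3a1, Sf3b2 and Srsf1) and 1 became lower, against 9.51% and 14.0% of all genes. That gene was Srsf3, at -0.01 ± 0.09 before and -0.35 after subtraction by span (edgeR adjusted p = 0.966 and 0.00264), but -0.08 by exonic length (edgeR adjusted p = 0.465). With HSC and MPP1 alone, chosen after seeing the data and the highest WT groups in stem cell markers, 19 members were called higher on average, against 23.7% of all genes.

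The KO against WT difference itself varied between populations in 5 members (12.2%, against 17.7% of all genes and 34.3% of genes of at least 20 CPM), by edgeR's test of the 3 interaction terms: Hnrnpl, Hnrnpul1, Hnrnpk, Sf3a1 and U2af1. In Hnrnpl, Hnrnpul1 and Sf3a1 the log2 fold change was largest in HSC or MPP4 and smallest in MPP2 (0.20 for Hnrnpl, 0.28 for Hnrnpul1 and 0.38 for Sf3a1). Hnrnpk ranged from 0.16 in MPP2 to 0.99 in MPP4. When a replicate number of 1 genotype was left out in all populations, U2af1 lost its call in all 6 cases (highest adjusted p 0.319) and Sf3a1 in 3, those of WT replicates 2 and 3 and KO replicate 3 (highest 0.0707). Subtraction by exonic length left 3 members, against 15.2% of all genes. After subtraction by span 0 members passed the interaction test, against 6.06% of all genes.

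A measure that no scaling can move is each gene's share of the summed counts of the 42 members in its own library. The share of Srsf3 was 4.05% ± 0.259 in WT HSC and 2.55% ± 0.278 in KO HSC, 3.86% ± 0.390 and 3.06% ± 0.102 in MPP1, and 3.43% ± 0.405 and 2.48% ± 0.248 in MPP4, each time without overlap. In MPP2 it was 3.81% ± 0.404 and 2.76% ± 0.767, with overlap. Srsf3 was thus a smaller part of the splicing factor pool in KO libraries of 3 populations. Srsf10, an SR protein that represses splicing when dephosphorylated, had lower KO shares without overlap in HSC (1.25% to 1.34% and 1.14% to 1.24%), MPP1 (1.79% ± 0.185 and 1.26% ± 0.171) and MPP2 (1.76% ± 0.238 and 1.25% ± 0.106). Hnrnpul1 took higher shares in KO in MPP1 (11.1% ± 1.18 and 13.4% ± 0.842) and MPP2 (13.9% ± 0.144 and 14.7% ± 0.453). It overlapped in HSC (13.2% ± 1.13 and 15.4% ± 1.56) and MPP4, where its mean was lower in KO (14.9% ± 2.38 and 13.7% ± 0.602). Sf3a1 also had higher KO shares without overlap in MPP1 and MPP2. Of 42 members, 3 had wholly higher KO shares in each population. Wholly lower were 5 in HSC and MPP2 and 7 in MPP1 and MPP4. The measure was taken within the members, so no share over all genes stands beside these counts. With 3 libraries against 3, some members separate by chance, and nothing is read from the counts. Shares in a library add up to a fixed total, so higher shares of some members lower those of others. The genes named were singled out after their values were seen, and the shares were not tested.

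Of the genes known from myeloid disease, Sf3b1, which encodes the SF3b subunit that clasps the branch site, was at 134, 128 and 99.7 CPM in WT HSC and 154, 165 and 156 CPM in KO HSC. The KO libraries lay above the WT libraries, with a log2 fold change of 0.39 ± 0.14 (edgeR adjusted p = 0.0224), but the call was lost without WT replicate 3 or KO replicate 2 (highest adjusted p 0.160), after subtraction by span (-0.10) and by exonic length (0.28, edgeR adjusted p = 0.120). In MPP4-labelled libraries it was at 94.1, 92.2 and 121 CPM in WT and 138, 152 and 154 CPM in KO (0.53 ± 0.14, edgeR adjusted p = 0.00531), and the value after subtraction was 0.21 by span (edgeR adjusted p = 0.401) and 0.47 by exonic length (edgeR adjusted p = 0.0184). In MPP1 (148, 124 and 116 against 154, 147 and 135 CPM) and MPP2 (203, 211 and 179 against 183, 225 and 181 CPM) the groups overlapped and it was not called. Its share of member counts was 6.35% ± 0.933 in WT HSC and 4.77% ± 0.223 in KO HSC, without overlap, so its rise in CPM was smaller than that of the members as a whole.

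U2af1, the small U2AF subunit that reads the AG at the end of the intron, was at 11.4, 13.3 and 15.1 CPM in WT HSC and 22.0, 30.4 and 39.8 CPM in KO HSC. Its log2 fold change of 1.21 ± 0.33 (edgeR adjusted p = 0.00313) was 0.85 after subtraction by span, where it was no longer called (edgeR adjusted p = 0.122), and 1.16 by exonic length, where it was (edgeR adjusted p = 0.00806). It was not called in MPP1 (28.5, 25.7 and 19.3 against 15.4, 21.5 and 19.0 CPM), MPP2 (37.1, 28.2 and 28.4 against 29.1, 42.5 and 33.0 CPM) or MPP4 (12.9, 20.3 and 21.9 against 24.2, 40.1 and 25.1 CPM). MPP1 was the only population in which its mean was lower in KO. It has 2 near-identical copies. U2af2, the large subunit that binds the polypyrimidine tract, overlapped in MPP1 and MPP2 and was called in none of the 4 populations (0.52 ± 0.23 in HSC, edgeR adjusted p = 0.0592). For Srsf2, whose count was 0 in every library, no level can be given.

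The members with the lowest levels per kb carry little information. Sf3b5 was at 1.39, 2.39 and 2.29 CPM in WT HSC and 5.92, 6.76 and 11.7 CPM in KO HSC, a log2 fold change of 1.99 ± 0.76 (edgeR adjusted p = 0.0330) that was lost without any of the 3 WT libraries or KO replicate 3. It was lower in KO MPP1 without overlap, at 3.23, 9.12 and 4.48 against 2.67, 2.58 and 1.75 CPM, and was not called there. Srsf12 was at 4.43, 6.37 and 7.71 CPM in WT HSC and 4.18, 13.5 and 0.632 CPM in KO HSC. Background by span was estimated at 64.7% of its WT HSC counts. The same estimate came to 131% of its KO MPP2 counts, more than the counts themselves, so it is rough for this gene. Hnrnpab was at 4.16, 2.39 and 1.14 CPM against 0, 4.05 and 1.90 CPM, with a background by span estimated at 42.9% in WT HSC. Neither Srsf12 nor Hnrnpab was called in any population.

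Among the WT groups, the members were highest in the libraries labelled MPP2. Their sum was 1900 ± 42.1 CPM in WT HSC, 2068 ± 15.0 in MPP4, 2118 ± 71.2 in MPP1 and 3181 ± 35.7 in MPP2, so that the lower 3 lay close together. The 3 comparisons below share the WT HSC libraries, which also serve KO against WT in HSC. Against WT HSC, 21 members were called higher in MPP2 (51.2%, against 11.7% of all genes, and 72.4% of members against 27.6% of all genes at 20 CPM or more) and 0 lower (7.37% of all genes). The median log2 fold change was 0.75 over the members and -0.16 over all genes. After subtraction by exonic length 20 were called higher, against 10.8% of all genes, and by span 11 (26.8%, against 6.51%), with a median of 0.52 against -0.13. Hnrnpul1, at 437, 435 and 452 CPM in MPP2, stood far above its WT HSC values given above (log2 fold change 0.81 ± 0.10, edgeR adjusted p = 4.56e-08). Hnrnpu was at 120, 146 and 128 CPM in MPP2, far above every WT HSC library (1.24 ± 0.17, edgeR adjusted p = 2.77e-07). Sf3b1 was called too (0.71 ± 0.14, edgeR adjusted p = 0.000122), as were both U2AF subunits (1.23 ± 0.33 for U2af1 and 0.79 ± 0.22 for U2af2, the latter lost without WT HSC replicate 1). Cell cycle markers differed in the same direction, from 760 to 845 CPM in WT HSC to 2378 to 2472 CPM in WT MPP2, and their part in the difference was not tested.

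In WT MPP1, Hnrnpu alone was called against WT HSC, at 94.7, 74.1 and 85.4 CPM (2.44% of members, against 1.97% of all genes and 4.61% of genes of at least 20 CPM, with 1.83% of all genes lower). Its log2 fold change was 0.60 ± 0.17 (edgeR adjusted p = 0.0322), and the call was lost when any 1 of the WT HSC libraries or MPP1 replicate 1 or 3 was left out. By either subtraction 2 members were called higher there, against 2.73% of all genes by span and 2.25% by exonic length. In WT MPP4, edgeR called 0 members (2.91% of all genes and 6.33% of those of at least 20 CPM higher, and 7.43% of all genes lower), although 5 were higher at an unadjusted p below 0.05 and DESeq2 called 4 (Hnrnpc, Hnrnpf, Hnrnpu and Hnrnpul1), against 6.06% of all genes. limma-voom called 0. After subtraction by span edgeR called 3, Hnrnpc, Hnrnpu and Hnrnpul1, against 4.52% of all genes, and by exonic length 3, against 3.62%.

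**Figure D4:**
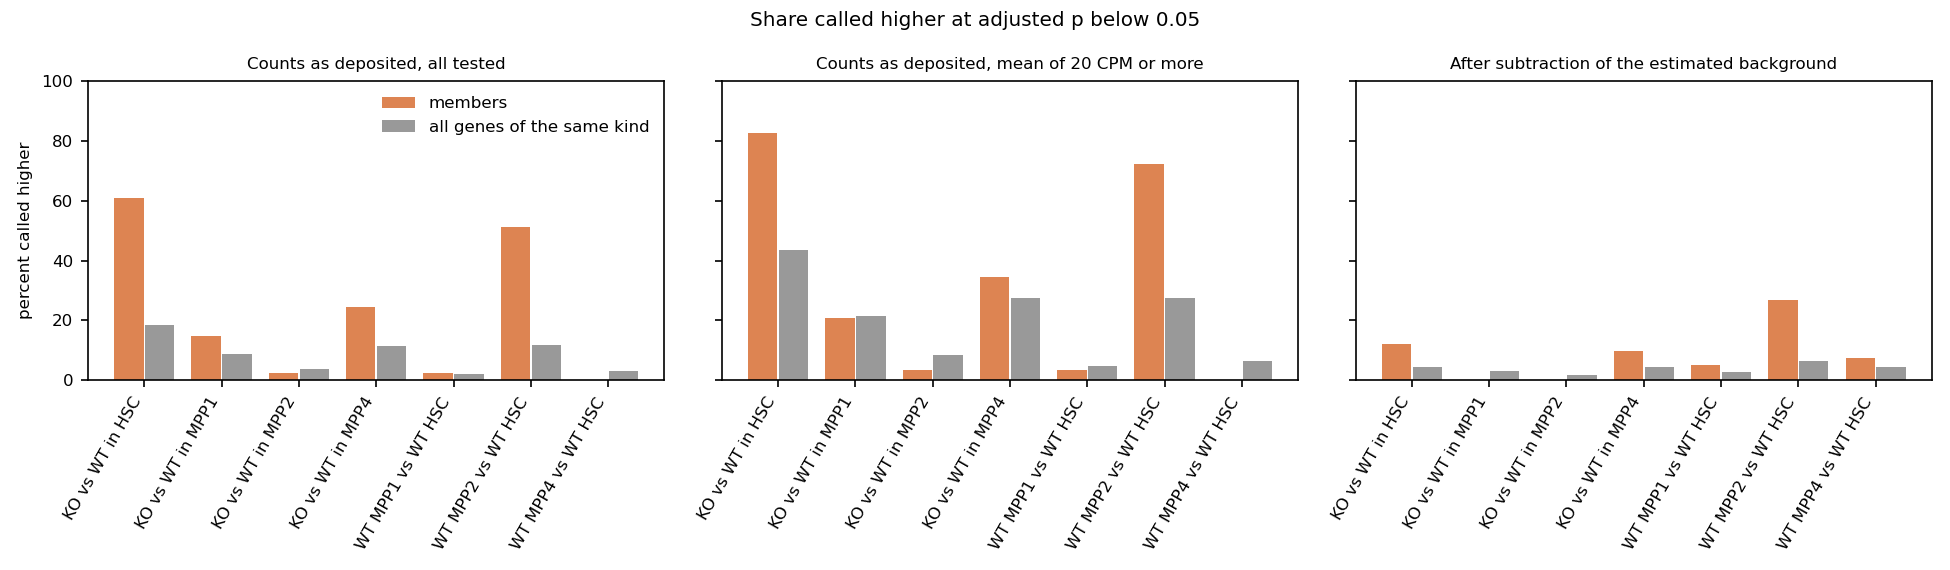
Percent of members (orange) and of all genes (grey) called higher in each comparison, for counts as deposited (left), for genes of at least 20 CPM (middle) and after the estimated background was subtracted by span (right). Members exceed all genes in KO against WT in HSC (61.0% and 18.3%) and in WT MPP2 against WT HSC (51.2% and 11.7%), and both gaps are smaller on the right (12.2% and 4.38%, 26.8% and 6.51%).

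Other parts of the splicing machinery were also counted in HSC, where abundant genes as a class were shifted upward. Of the U1 and U2 snRNP and Sm proteins 4 of 13 were called higher in KO, of branch site and U2-associated factors 6 of 11, of tri-snRNP proteins 9 of 17, and of Prp19 complex and catalytic factors 11 of 20. SR-related proteins had 15 of 20 higher, other regulators of splice choice 18 higher and 2 lower of 25, and SR protein kinases and import factors 6 higher and 1 lower of 10. These counts stand against the 18.3% of all genes and 43.5% of genes of at least 20 CPM given above. The minor spliceosome, which removes a rare class of introns, had 1 of 8 higher. After subtraction by span, in the same order, the counts called higher were 1, 3, 3, 0, 6, 5, 1 and 0, against 4.38% of all genes. Genes still called then included Srrm2, a large SR-related scaffold of nuclear speckles (1.02 ± 0.06 before and 0.47 after), Sf1, the branch-point binding protein (0.96 ± 0.09 and 0.41), Usp39 of the tri-snRNP (1.73 ± 0.23 and 1.39), the Sm protein gene Snrpd2 (1.62 ± 0.27 and 1.10), and Srpk1, which phosphorylates SR proteins (1.17 ± 0.15 and 0.74). In MPP4-labelled libraries 10 of 20 SR-related proteins and 11 of 25 other regulators were higher, and after subtraction by span 3 and 2. Before subtraction 11.4% of all genes and 27.4% of those of at least 20 CPM were higher there. In MPP1 6 SR-related proteins and 5 other regulators were higher, against 8.71% of all genes and 21.5% of those of at least 20 CPM (2 and 0 by span). In MPP2 2 and 1 were higher, against 3.73% of all genes and 8.34% of those of at least 20 CPM (1 and 0 by span). Srpk1 was called higher in KO in all 4 populations, with log2 fold changes of 0.80 ± 0.15 in MPP1, 0.57 ± 0.15 in MPP2 and 1.13 ± 0.15 in MPP4, and after subtraction in all but MPP2.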

How the data were processed

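RNA was measured in 24 libraries of sorted mouse bone marrow cells, with groups and replicate numbers taken from the titles. The deposited table gives raw whole-number read counts for each Ensembl gene identifier and its gene name. Per the labels' protocols, libraries were prepared from column-purified total RNA, and whether the kit kept strand is not said. Per the submitters' processing notes, the genome was mm39. The same notes list SAMtools 1.12 and DESeq2 without saying what each did. The aligner, counting program, annotation and strand setting are not given in the sources used here.

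Genes passing filterByExpr (21964 of 56748) were fitted in 1 quasi-likelihood model of 24 libraries with a mean per group (edgeR 4.0.16, R 4.3.3, TMM, 16 residual degrees of freedom, a common BCV of 0.393). P-values were adjusted by Benjamini-Hochberg over all genes and called below 0.05. CPM are on TMM-scaled totals, and standard errors are |log2 fold change| / √F. Since the labels do not say whether libraries come from separate animals, the p-values reflect only how these libraries vary, and that variation may be technical. No pairing by replicate number was seen (correlations of deviations from -0.00839 to 0.0163 over 21 pairs). Genes of low count weigh equally in this measure, so it cannot exclude pairing.

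Background was estimated from 1737 olfactory and vomeronasal receptor genes, per kb of gene span, then subtracted and rounded, with negative values set to 0. Spans were read from GENCODE's GRCm38 annotation, an older build, which holds 52125 of the identifiers (91.9%). Genes not found were dropped. Alternatives were median-of-ratios size factors, filters, DESeq2 1.42.0, limma-voom 3.58.1, only the libraries compared, a replicate block, background by exonic length and each library left out. The fit was tested on simulated data for the HSC genotype comparison, with 21964 genes. All groups had the same mean levels but for the changed genes. The differences in background and scaling between the real libraries were therefore not imitated. It called 8 of 100 genes given a 1.5-fold change and 33 of 100 given a 3-fold change. Among genes of at least 20 CPM it called 8 of 33 and 28 of 32. The calls held 3 unchanged genes, which gives no rate of false calls for the real comparison.

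Members and lists were chosen with earlier results of these data known. Named genes are Sf3b1, Srsf2 and U2af1, up to 5 called members of at least 20 CPM with the smallest p in each KO against WT comparison, up to 4 by interaction, up to 2 per WT comparison, the highest and lowest member per kb of each family, and up to 2 genes per pathway list by p. Any other gene is marked in the text as a later choice or named within a count of calls.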

Additional observations from a re-analysis of the deposited data

Results flagged for a closer look

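The KO against WT difference of 5 splicing factors varied between the 4 populations by edgeR's interaction test with Benjamini-Hochberg adjustment over all genes. The same test called 17.7% of all genes and 34.3% of genes of at least 20 CPM, against these 5 of 41 tested members. The adjusted p was 0.000399 for Hnrnpl, 0.00106 for Hnrnpul1, 0.00350 for Hnrnpk, 0.0146 for Sf3a1 and 0.0475 for U2af1. In Hnrnpl the difference was 1.05 on the log2 scale in HSC, 0.63 in MPP1, 0.20 in MPP2 and 0.99 in MPP4. In U2af1 it was 1.21 in HSC and -0.39 in MPP1. The call of U2af1 was lost whichever replicate number of a genotype was left out, and that of Sf3a1 without WT replicate 2, WT replicate 3 or KO replicate 3. After subtraction of background by span the adjusted p was 0.137, 0.293, 0.117, 0.574 and 0.178 in the same order.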

How the results depend on the processing

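The members' median in MPP1 turned negative after subtraction by span, and 2 called differences of Sf3b1 changed sign. In HSC the log2 fold change of Sf3b1 was -0.10 by span and -0.022 among genes of at least 20 CPM, and its average over populations was -0.044 by span. Chosen after seeing the data were the fit of genes of at least 20 CPM only and that of HSC and MPP1 only. In brackets below, percentages and counts of genes are for all genes tested at that setting. Members called higher in KO HSC (25) were 16 with median-of-ratios size factors (13.6%) and 14 with only the 6 libraries compared (2956 of 16490 genes). They were 5 after subtraction by span (4.38%) and 9 among genes of at least 20 CPM (16.6%). In MPP1 (6) they were 3 with median-of-ratios (6.47%), DESeq2 (7.41%), exonic subtraction (7.38%) and genes of at least 20 CPM (13.2%), and 0 by span (3.18%). In MPP2 (1) they were 2 with a 5 CPM filter (859 of 18886 genes) and with DESeq2 (4.16%). They were 4 with limma-voom (4.7%) and with only the 6 libraries (958 of 15454 genes), and 0 by span (1.62%). With exonic subtraction the counts were 19 in HSC (15.4%), 1 in MPP2 (3.21%), 10 in MPP4 (10.0%), 18 on average (21.3%) and 20 in WT MPP2 (10.8%). In MPP4 (10) they were 4 by span (4.43%) and 6 at 20 CPM (17.2%). On average (22) they were 8 by span (9.51%) and at 20 CPM (27.1%). On average a single member, Srsf3, was called lower by span (14.0% of all genes lower) and at 20 CPM (26.4%). With median-of-ratios (33.9%), DESeq2 (35.6%) and limma-voom (33.4%) it was Srsf12. In WT MPP1 (1) there were 2 with median-of-ratios (2.14%), by span (2.73%), by exonic length (2.25%) and at 20 CPM (6.43%), and 4 with DESeq2 (3.02%). In WT MPP2 (21) there were 11 by span (6.51%). In WT MPP4 (0) there were 2 with median-of-ratios (4.55%) and with the 5 CPM filter (717 of 18886 genes), and 4 with DESeq2 (6.06%). There were 3 by span (4.52%), by exonic length (3.62%) and at 20 CPM (12.7%). The interaction (5) gave 3 with median-of-ratios (16.1%) and exonic subtraction (15.2%), 0 by span (6.06%) and 2 at 20 CPM (31.1%).

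Without 1 of the 6 libraries compared, the counts higher ran from 18 to 20 in HSC, 3 to 5 in MPP1, 0 to 1 in MPP2 and 8 to 11 in MPP4. The members called ran from 0 to 1 in WT MPP1, 17 to 20 in WT MPP2 and 0 to 1 in WT MPP4. Of 23338 to 23708 genes tested in these fits, 3398 to 3533 were higher in HSC and 1420 to 1558 in MPP1. In MPP2 488 to 658 were higher, and in MPP4 2005 to 2253. Against WT HSC the genes higher were 291 to 337 in MPP1, 2083 to 2192 in MPP2 and 484 to 553 in MPP4. Without 1 replicate number of a genotype in all 4 populations (4 libraries), members called ran from 16 to 22 on average and from 3 to 4 for the interaction. Of 22793 to 23371 genes tested, 4395 to 4656 and 2517 to 3575 were called. Counts of members lower stayed at 0 but for 0 to 1 on average, against 5183 to 7006 of all genes. At an unadjusted p below 0.05, 2 members were lower in MPP2 and 1 on average, and 0 in the other comparisons. With the replicate number as a block, counts were 23 in HSC and 2 in MPP2 (3979 and 807 of 21964 genes), and no other member count changed.

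Median-of-ratios scaling moved the median of all genes in HSC from -0.31 to -0.46. It moved the share of all genes called higher and lower in MPP4 from 11.4% and 6.47% to 6.92% and 8.77%, and in MPP1 from 8.71% and 4.9% to 6.47% and 5.92%. Over 102 differences of single genes (every called member and each other difference given above), 1311 values kept their side of the threshold, 292 lost a call, 6 gained one and 21 changed sign. Apart from Sf3b1, the changes of sign were in estimates near 0 that were not called with the deposited counts. Srsf3 in HSC was -0.0167 with median-of-ratios, -0.0168 with DESeq2, -0.030 with only the 6 libraries, -0.40 by span and -0.27 at 20 CPM. Hnrnpm in HSC was -0.058 with median-of-ratios, -0.059 with DESeq2, -0.072 with only the 6 libraries, -0.36 by span, -0.012 by exonic length and -0.32 at 20 CPM, and ran from -0.026 to 0.24 without 1 library. The average of Srsf3 was 0.00074 without a filter and 0.044 in HSC and MPP1 only, and ran from -0.077 to 0.063 without 1 replicate number. Members under 20 CPM (12 of those tested) are limited by depth: in the simulation no more than 8 of 100 genes changed 1.5-fold were called. Where a cause of these changes is not given by the alternative itself, the cause was not tested.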
